A study of Mus musculus with 16 samples.

Results

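Serine was withdrawn from resting mouse macrophages, cells that had received no inflammatory stimulus, and their gene expression was measured by RNA sequencing. The comparison covered 8 of the 16 libraries of the series, 4 from untreated cells in medium without serine and 4 from untreated cells in complete medium, joined by the replicate number in their labels. All genes that passed the count filter, run over all 16 libraries, were used, 11004 of the 43430 in the deposited table. The cells were bone marrow-derived macrophages of C57BL/6J mice, grown from marrow with macrophage colony-stimulating factor at 20 ng/mL and harvested on day 6. They were then plated in minimal essential medium (MEM), complete or lacking serine. Cells of the other 8 libraries had the same 2 media and 100 ng/mL lipopolysaccharide (LPS), with RNA taken 4 h after it. How long serine was withheld, the age of the mice, and whether the replicates were separate animals are not given in the sources used here. The p-values therefore speak only of how these particular libraries vary, which among replicates 2 to 4 may be technical. Replicate 1 was of the other sex by its Xist and Y-linked counts, given below.

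Serine is an amino acid that cells import or make from glucose through the enzymes Phgdh, Psat1 and Psph. It feeds protein, glycine, cysteine and phospholipid synthesis and, through folate, supplies one-carbon units for nucleotides. When an amino acid runs short, uncharged transfer RNA activates the kinase GCN2, which phosphorylates the initiation factor eIF2 and favours translation of the transcription factor ATF4. ATF4 pairs with C/EBP proteins at amino acid response elements and drives genes for amino acid synthesis, amino acid uptake and transfer RNA charging.

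The letters TGATGNAA, the core of such elements, were searched on both strands of RefSeq promoters (GRCm38.p6), from 250 bases before to 50 bases after each annotated start. They are shown because most of the genes that rose over all libraries and had a promoter in the table held them. The first 4 genes below rose over all libraries, and Aars and Gars rose once replicate pair 4 was left out. The windows are written 5′ to 3′ on the strand of the gene, with the match in capitals and up to 30 bases on each side, ending at the start site. A match whose capitals begin with TT lies on the opposite strand. Positions count from the start site, and the name of each gene is followed by its window. Jdp2 had 3 annotated promoters, of which 1 held the letters, and its position counts from that start. In the shares below, a gene with several promoters counts if any of them held the letters.
Asns, first base of the match at -23, chr6:7693210-7693262, minus strand: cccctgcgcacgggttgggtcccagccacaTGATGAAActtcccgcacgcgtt
Jdp2, at -33, chr12:85599353-85599415, plus strand: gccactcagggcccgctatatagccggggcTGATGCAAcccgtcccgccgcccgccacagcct
Pck2, at -103, chr14:55540133-55540200, plus strand: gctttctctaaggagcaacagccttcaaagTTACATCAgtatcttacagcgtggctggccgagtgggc
Chac1, at -193, chr2:119351019-119351086, plus strand: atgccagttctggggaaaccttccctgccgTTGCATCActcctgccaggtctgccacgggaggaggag
Aars, at -112, chr8:111033700-111033767, plus strand: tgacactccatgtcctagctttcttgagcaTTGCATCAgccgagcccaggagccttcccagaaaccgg
Gars, at -30, chr6:55037941-55038000, plus strand: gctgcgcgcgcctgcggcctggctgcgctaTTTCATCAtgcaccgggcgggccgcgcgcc

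Of the 9 genes that rose over all libraries, 8 had a promoter in the table, and 5 of these held the letters, 62.5%. The fifth of them, Trib3, has its match at 15 bases into the transcript. Among all tested genes with a promoter the share was 242 of 8737, 2.77%, and it was 1219 of 27025 genes, 4.51%, over all promoters listed. Among genes that rose once pair 4 was left out, 10 of 36 held the letters, 27.8%. In the 6 libraries of pairs 1 to 3 alone it was 29 of 332, 8.73%. Of the 4 genes with a promoter that fell without pair 4, 0 did. These are matches of letters and no binding was measured.

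Total counts ran from 5760734 to 7845261 with serine and from 2871477 to 10043362 without it. Replicate 4 without serine stood apart from the other 7 libraries. Besides its low total, it had 12900 genes with a count, where the others had 14765 to 16031, and its 20 most abundant genes took 23.1% of the counts, where the others gave 14.6% to 17.3%. In pair 4 the log2 differences of single genes spread with an SD of 1.02, against 0.270 to 0.286 in pairs 1 to 3, and 30.5% of genes differed by over 1 on the log2 scale, against 0.863% to 1.19%. The difference also followed gene length there, with a median of 0.80 in the shortest 10% of genes and -0.71 in the longest 10%, where pairs 1 to 3 lay between -0.03 and 0.02. The main results are therefore given both with all 16 libraries and without both untreated libraries of pair 4. Replicate 1 of both groups had no Xist count and 1713 and 2391 counts of Y-linked genes, the reverse of replicates 2 to 4. Any effect of sex on the level of a gene is thus tied to that replicate number and falls within the pairing. A difference between the sexes in the response to withdrawal would remain in pair 1 and was not tested.

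**Figure D1:**
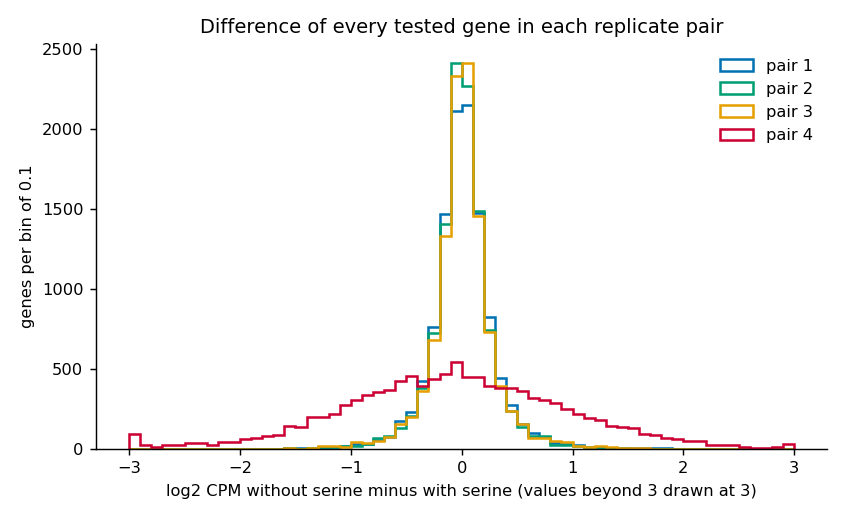
Number of genes (vertical axis) by their log2 difference in CPM between the library without and with serine (horizontal axis, bins of 0.1), 1 line per replicate pair over 11004 genes. Pairs 1 to 3 form the same narrow peak, with SDs of 0.270 to 0.286, and pair 4 is broad, with an SD of 1.02.

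All 14 macrophage markers were detected, and their summed level was 17893 to 23322 CPM (counts scaled to the TMM-adjusted library size) with serine and 17062 to 28195 CPM without. Neutrophil markers (10 of 10 detected) summed to 19.9 to 92.1 and 20.9 to 116 CPM, and stromal markers (6 of 7, Lum at 0) to 1.53 to 18.2 and 1.01 to 20.8 CPM. Dendritic cell markers (7 of 8, Cd209a at 0) summed to at most 7.07 CPM in any library, and mast cell and basophil markers (4 of 5, Fcer1a at 0) to at most 5.82 CPM. B cell, T and NK cell and erythroid markers stayed under 1 CPM in sum, with Pax5, Cd3e, Cd3d, Ncr1, Hbb-bs and Hbb-bt at 0. The megakaryocyte list, led by Pf4, which macrophages also express, reached 339 CPM in replicate 4 without serine and lay between 70.8 and 97.9 CPM elsewhere. The part of other cells in the results was not tested. In bulk RNA, fewer cells of a type and less RNA per cell cannot be told apart.

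Withdrawal of serine raised 9 genes and lowered none at an adjusted p of 0.05 over 11004 genes (0.0818% and 0%, edgeR's quasi-likelihood test with the replicate number as a block). They were Asns, Cars, Chac1, Mthfd2, Trib3, Atf4, Slc7a1, Jdp2 and Pck2, and each was higher in 4 of 4 pairs. In 6 of the 9 the 2 groups did not overlap (1.46% of tested genes, higher). The same libraries made the calls, so these counts are no separate support. At an unadjusted p under 0.05 there were 432 higher and 253 lower genes. DESeq2 called 68 higher and 12 lower, and limma voom, which gave replicate 4 without serine a weight of 0.0432 against 0.758 or more for the other libraries, called 83 and 14. Without pair 4, edgeR called 42 genes higher (0.377%) and 5 lower (0.0449%) of 11130, and all 9 were among the 42. The 6 untreated libraries of pairs 1 to 3 alone gave 430 higher (3.98%) and 323 lower (2.99%) of 10805, with only 2 residual degrees of freedom and a biological coefficient of variation of 3.45%, against 16.7% over all libraries and 7.87% without pair 4. This 6-library fit was added after seeing the data and held all 42 and all 5. It uses the same untreated libraries as the fit without pair 4, so that overlap is no separate support.

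The calls rest on the pairing and, for some genes, on single libraries. With no replicate block, 0 genes passed over all libraries (548 at an unadjusted p under 0.05) and 0 without pair 4 (308), and the 8 untreated libraries alone with the block also gave 0 (267). Leaving out pair 1, 2 or 3 left 3, 6 or 5 genes higher. Asns, Cars and Mthfd2 passed in each of the 12 fits that left out 1 pair or 1 untreated library. Chac1 missed the threshold only without pair 1 (adjusted p = 0.0635). Trib3 missed it in 5 of the 12 fits, those without pair 1 or 2, replicate 1 or 4 with serine, or replicate 2 without serine (edgeR adjusted p of 0.0589 to 0.0913). Atf4 missed it in 6, those without pair 1 or 3, replicate 1, 3 or 4 with serine, or replicate 2 without serine (0.0589 to 0.0964). Slc7a1 missed it in 8, without pair 1 or 3, any 1 replicate with serine, or replicate 2 or 3 without serine (0.0572 to 0.181). Pck2 missed it in 8, without pair 1, 2 or 3, replicate 1, 2 or 4 with serine, or replicate 2 or 3 without serine (0.0792 to 0.419). Jdp2 missed it in 10, in all but those without pair 4 or its library without serine (0.0589 to 0.419). Over the 12 fits the log2 fold changes ran from 1.31 to 1.72 for Trib3, 0.80 to 1.08 for Atf4, 1.09 to 1.44 for Slc7a1, 0.84 to 1.19 for Pck2 and 0.72 to 0.89 for Jdp2.

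**Figure D2:**
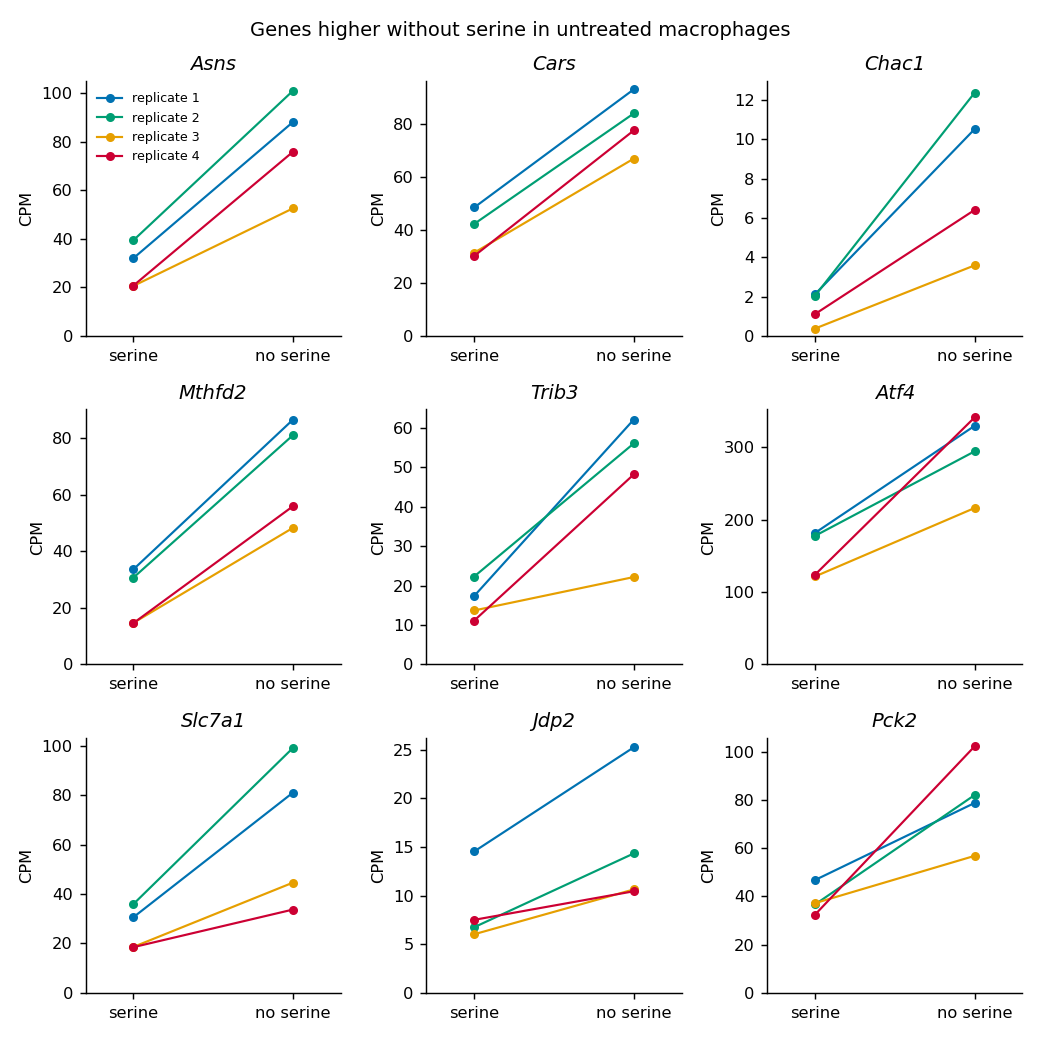
CPM (vertical axes, from 0) with and without serine for the 9 genes past the threshold over all libraries, 1 line per replicate pair. Every line rises, and replicate 4 (red) rises most steeply in Pck2, Atf4 and Cars and least in Slc7a1 and Jdp2.

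Atf4 itself (chromosome 15, 80255184 to 80257540) encodes the transcription factor described above, of which only the RNA was measured. It stood at 182, 178, 121 and 124 CPM in replicates 1 to 4 with serine and at 329, 294, 216 and 341 CPM without. The 2 groups did not overlap. It rose by 0.97 ± 0.13 on the log2 scale (SE from the fit to all 16 libraries, n = 4 pairs, edgeR adjusted p = 0.0097). Without pair 4 the rise was 0.80 ± 0.09 (0.00109). Trib3 (chromosome 2, 152337422 to 152344032), a pseudokinase that restrains ATF4 and the kinase AKT, was at 17.4, 22.3, 13.7 and 11.1 CPM with serine and at 62.2, 56.1, 22.2 and 48.2 CPM without. Replicate 3 without serine lay just under the highest library with serine, so the groups touched. It rose by 1.48 ± 0.20 on the log2 scale (edgeR adjusted p = 0.0097), or 1.35 ± 0.20 without pair 4 (0.0246). Jdp2 (chromosome 12, 85599105 to 85639878), a repressor that dimerises with Jun and related factors, went from 14.5, 6.76, 6.03 and 7.52 CPM to 25.3, 14.3, 10.6 and 10.5 CPM. Replicate 1 was the highest in both media, and the groups overlapped for that reason, while each pair rose. Its fold change was 0.81 ± 0.12 (log2) (edgeR adjusted p = 0.0188), or 0.89 ± 0.12 without pair 4 (0.00133).

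Of the 11 transcription factors and regulators listed around ATF4, 3 rose and 0 fell (background 0.0818% and 0%), and the same count passed without pair 4. The list's median log2 fold change was 0.81, or 0.62 without pair 4, against 0.0030 over all genes tested, and the median was 0.60, 0.72, 0.20 and 1.31 in pairs 1 to 4. Of the members that missed the threshold, Atf5, an ATF4 target that controls mitochondrial stress genes, had 38.2, 59.7, 48.4 and 48.9 CPM with serine and 77.7, 98.1, 69.9 and 143 CPM without, with no overlap. Its log2 fold change was 0.96 ± 0.22 (edgeR adjusted p = 0.327), and 0.74 ± 0.21 without pair 4 (0.293). Ddit3, which encodes the stress factor CHOP, had a log2 fold change of 0.83 ± 0.19 (0.327), or 0.70 ± 0.20 without pair 4 (0.289), and was higher in 4 of 4 pairs. Atf3, a stress-induced repressor, had 0.17 ± 0.15 (0.69), or 0.24 ± 0.16 without pair 4 (0.76), and was higher in 3 of 4.

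The ATF4 target list had 32 tested members of 38. Of these, 6 rose and 0 fell over all libraries, and 11 rose and 0 fell without pair 4. Of all tested genes, 0.0818% rose and 0% fell over all libraries, and 0.377% rose and 0.0449% fell without pair 4. These shares are the background for the list counts below. Aldh1l2, Slc7a3, Stc2, Cth, Fgf21 and Pycr1 did not pass the count filter. The median log2 fold change was 0.67, or 0.62 without pair 4, and 24 of the 32 were higher in 4 of 4 pairs, where 8.72% of all tested genes were. By pair, the median was 0.71, 0.72, 0.51 and 0.58, so pair 4 lay within the range of the others for this list. The list shares 7 tested genes with the factor list and 8 with the transporter list. Phgdh, Psat1, Psph, Shmt2, Mthfd2, Mthfd1l, Asns, Pck2 and Aldh18a1 are counted again in the synthesis and folate lists below. Chac1 and Slc7a11 are counted again in the glutathione list. The lists are therefore not separate lines of evidence.

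**Figure D3:**
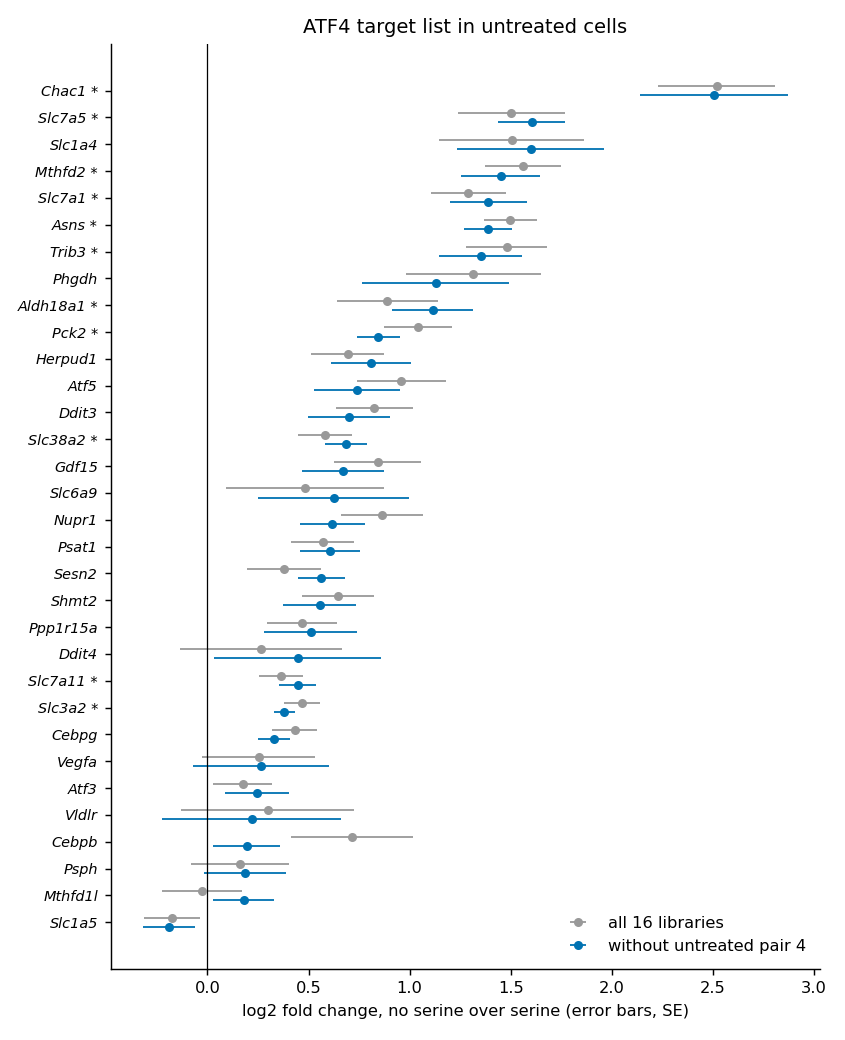
Log2 fold change, without serine over with serine (horizontal axis), of the 32 tested ATF4 targets, with SE as error bars. Grey points use all 16 libraries, blue points leave out untreated pair 4, and asterisks mark the 11 genes past an adjusted p of 0.05 without pair 4. Chac1 is the farthest to the right, at 2.52 and 2.51.

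Asns (chromosome 6, 7675169 to 7693254), asparagine synthetase and a classic ATF4 target, had 32.0, 39.4, 20.6 and 20.7 CPM with serine and 88.1, 101, 52.6 and 75.9 CPM without. The groups did not overlap, and over all libraries it had the smallest p of all genes. On the log2 scale it rose by 1.50 ± 0.13 (edgeR adjusted p = 0.000378), a 2.82-fold rise, and 1.39 ± 0.12 without pair 4 (0.000111). Chac1 (chromosome 2, 119351229 to 119354381), an enzyme that degrades glutathione, went from 2.12, 2.05, 0.377 and 1.11 CPM to 10.5, 12.4, 3.59 and 6.41 CPM. All 4 libraries without serine lay above all 4 with it. Its log2 fold change of 2.52 ± 0.29 (edgeR adjusted p = 0.00325) was the highest of the 9, with 2.51 ± 0.37 without pair 4 (0.0144). Pck2 (chromosome 14, 55540266 to 55550017), the mitochondrial phosphoenolpyruvate carboxykinase that can feed serine synthesis, went from 46.8, 36.7, 37.2 and 32.4 CPM to 78.7, 82.0, 56.8 and 102 CPM. The groups did not overlap, and replicate 4 without serine was the highest library. On the log2 scale this was 1.04 ± 0.17 (edgeR adjusted p = 0.0393), or 0.84 ± 0.11 without pair 4 (0.00109).

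Aldh18a1, which makes the precursor of proline, passed without pair 4 and not over all libraries with edgeR, where limma voom called it (adjusted p = 0.00682) and DESeq2 did not (0.277). It had 7.98, 11.3, 6.41 and 6.82 CPM with serine and 18.9, 25.6, 11.3 and 5.40 CPM without, so replicate 4 went the other way from replicates 1 to 3. In log2 terms this was 0.89 ± 0.25 over all libraries (edgeR adjusted p = 0.578) and 1.11 ± 0.20 without pair 4 (0.0265). Of 13 tested genes for the synthesis of amino acids other than serine, 2 rose over all libraries (Asns and Pck2, background 0.0818%). Without pair 4, 3 rose (background 0.377%), and the list median was 0.18 and -0.01 in the 2 fits. Gdf15, a secreted stress cytokine of the ATF4 list, was at 12.5 to 21.7 CPM with serine and 28.1 to 37.2 CPM without, with no overlap. Its log2 fold change was 0.84 ± 0.22 (edgeR adjusted p = 0.455), and 0.67 ± 0.20 without pair 4 (0.303).

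The enzymes that make serine were all higher in 4 of 4 pairs (8.72% of tested genes were), and none of the 3 passed the test in either fit. Phgdh, which commits a glycolytic intermediate to serine, had 2.42, 6.55, 2.01 and 3.20 CPM with serine and 6.14, 13.8, 4.62 and 12.5 CPM without. Replicate 2 was highest in both media, and the groups overlapped. The log2 fold change was 1.32 ± 0.33 (edgeR adjusted p = 0.442), or 1.13 ± 0.36 without pair 4 (0.342). Psat1, the aminotransferase of the second step, went from 11.5, 16.1, 9.30 and 10.2 CPM to 19.3, 23.2, 13.6 and 13.2 CPM, a log2 fold change of 0.57 ± 0.16 (0.553), or 0.60 ± 0.15 (0.102) without pair 4. Psph, the phosphatase of the last step, had a log2 fold change of 0.16 ± 0.24 (0.804), or 0.19 ± 0.20 without pair 4 (0.876). In the 6 libraries of pairs 1 to 3 alone, 2 of the 3 passed (background 3.98%).

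Of 16 tested folate-cycle genes, Mthfd2 was the only one past the threshold, in the fits with and without pair 4, and the list median was 0.03 and 0.02. Mthfd2 (chromosome 6, 83305691 to 83317606), the mitochondrial dehydrogenase that carries one-carbon units from serine, had 33.6, 30.7, 14.7 and 14.6 CPM with serine and 86.6, 81.1, 48.3 and 56.0 CPM without. Every library without serine was above every library with it. It rose by 1.56 ± 0.19 on the log2 scale (edgeR adjusted p = 0.00389), or 1.45 ± 0.20 without pair 4 (0.0203). Shmt2, the mitochondrial enzyme that splits serine into glycine and a one-carbon unit, went from 19.9, 26.6, 16.1 and 17.4 CPM to 27.7, 38.9, 25.6 and 32.7 CPM, a log2 fold change of 0.65 ± 0.18 (0.576), or 0.56 ± 0.18 without pair 4 (0.335). Its cytosolic counterpart Shmt1 was at 2.39 to 4.20 CPM with serine and 1.92 to 6.75 CPM without, with a log2 fold change of 0.08 ± 0.28 (0.92) that was -0.23 ± 0.22 without pair 4 (0.851). Mthfd1, the cytosolic trifunctional enzyme, had -0.12 ± 0.15 (0.757), or -0.03 ± 0.13 without pair 4 (0.978), and Mthfd1l, the mitochondrial formate producer, had -0.03 ± 0.20 (0.968), or 0.18 ± 0.15 without pair 4 (0.816). Aldh1l2, a mitochondrial folate enzyme below the filter, had 12 counts over the 4 libraries with serine and 20 without. The transsulfuration enzymes Cbs and Cth, which turn serine and homocysteine into cysteine, had 1 and 1 and 0 and 6 counts.

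Some amino acid importers rose. Of 19 tested, 1 rose over all libraries (background 0.0818%) and 5 without pair 4 (0.377%), and none fell in either fit. The list median was -0.03 and 0.17, and pair 4 alone had a median of -0.64 where pairs 1 to 3 had 0.10 to 0.17. Slc7a1 (chromosome 5, 148327410 to 148399904), the importer of cationic amino acids, had 30.6, 35.9, 18.6 and 18.5 CPM with serine and 81.0, 99.1, 44.6 and 33.7 CPM without. Replicates 1 and 2 were the higher pair in both media, and replicate 4 without serine lay below replicate 2 with it. It rose by 1.29 ± 0.19 (log2) (edgeR adjusted p = 0.0151), or 1.39 ± 0.19 without pair 4 (0.0203). Slc7a5, the light chain of the exchanger of large neutral amino acids, had 11.5, 15.3, 7.17 and 5.43 CPM with serine and 41.6, 41.5, 20.9 and 8.77 CPM without. It was 1.50 ± 0.26 on the log2 scale (edgeR adjusted p = 0.0654), and passed without pair 4 at 1.60 ± 0.17 (0.00109). Its heavy chain Slc3a2 also passed without pair 4, at 0.38 ± 0.05 (0.00188), against 0.47 ± 0.09 (0.0953) over all libraries with edgeR. DESeq2 called Slc3a2 and Slc7a5 over all libraries too (adjusted p of 2.8e-06 and 0.00016). The neutral amino acid importer Slc38a2 was at 0.69 ± 0.10 without pair 4 (0.011) and 0.58 ± 0.13 with it (0.327). Slc7a11, the cystine importer, was at 0.45 ± 0.09 (0.0416) and 0.36 ± 0.11 (0.662) in the same order. Slc1a4, which carries serine and alanine, had a log2 fold change of 1.60 ± 0.36 without pair 4 (0.0837) and 1.50 ± 0.36 with it (0.375), from levels of 0.974 to 1.84 CPM with serine.

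Several enzymes listed here as charging transfer RNA in the cytosol rose once pair 4 was left out, and none of those listed as mitochondrial passed. The lists do not show whether a member serves both compartments. Of 20 cytosolic aminoacyl-tRNA synthetases, 1 rose over all libraries (background 0.0818%) and 6 without pair 4 (0.377%), and none fell in either fit. The list median was 0.38 and 0.40, and 0.44, 0.40, 0.32 and 0.44 in pairs 1 to 4. Of 17 mitochondrial synthetases, 0 passed in either direction with edgeR in both fits, 0 passed in the 6 libraries alone, and the list median was -0.01 and 0.0050. At an unadjusted p under 0.05 over all libraries, 10 cytosolic synthetases were higher and 0 lower, against 1 and 0 of the mitochondrial ones. Cars (chromosome 7, 143557230 to 143600090), the cysteine enzyme, had 48.5, 42.3, 31.4 and 30.2 CPM with serine and 93.1, 84.0, 66.9 and 77.6 CPM without. The groups were well separated. It rose by 1.09 ± 0.11 on the log2 scale (edgeR adjusted p = 0.000729), and by 1.0 ± 0.09 without pair 4 (3.04e-05). Without pair 4, Yars (tyrosine) passed at 0.82 ± 0.10 (0.00109), Aars (alanine) at 0.70 ± 0.09 (0.00133) and Mars (methionine) at 0.67 ± 0.10 (0.00306). In the same fit, Gars, the glycine enzyme, passed at 0.51 ± 0.10 (0.0291), and Sars, which charges serine itself, at 0.47 ± 0.09 (0.0234). Over all libraries these 5 missed the threshold, with adjusted p of 0.0571, 0.17, 0.0636, 0.142 and 0.262 in that order. Sars had 108, 130, 109 and 107 CPM with serine and 164, 182, 138 and 210 CPM without, with no overlap. The genes of Mars and Ddit3 overlap by 68 bases on opposite strands of chromosome 10, and the kit does not mark strand, so reads in that stretch cannot be told apart.

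**Figure D4:**
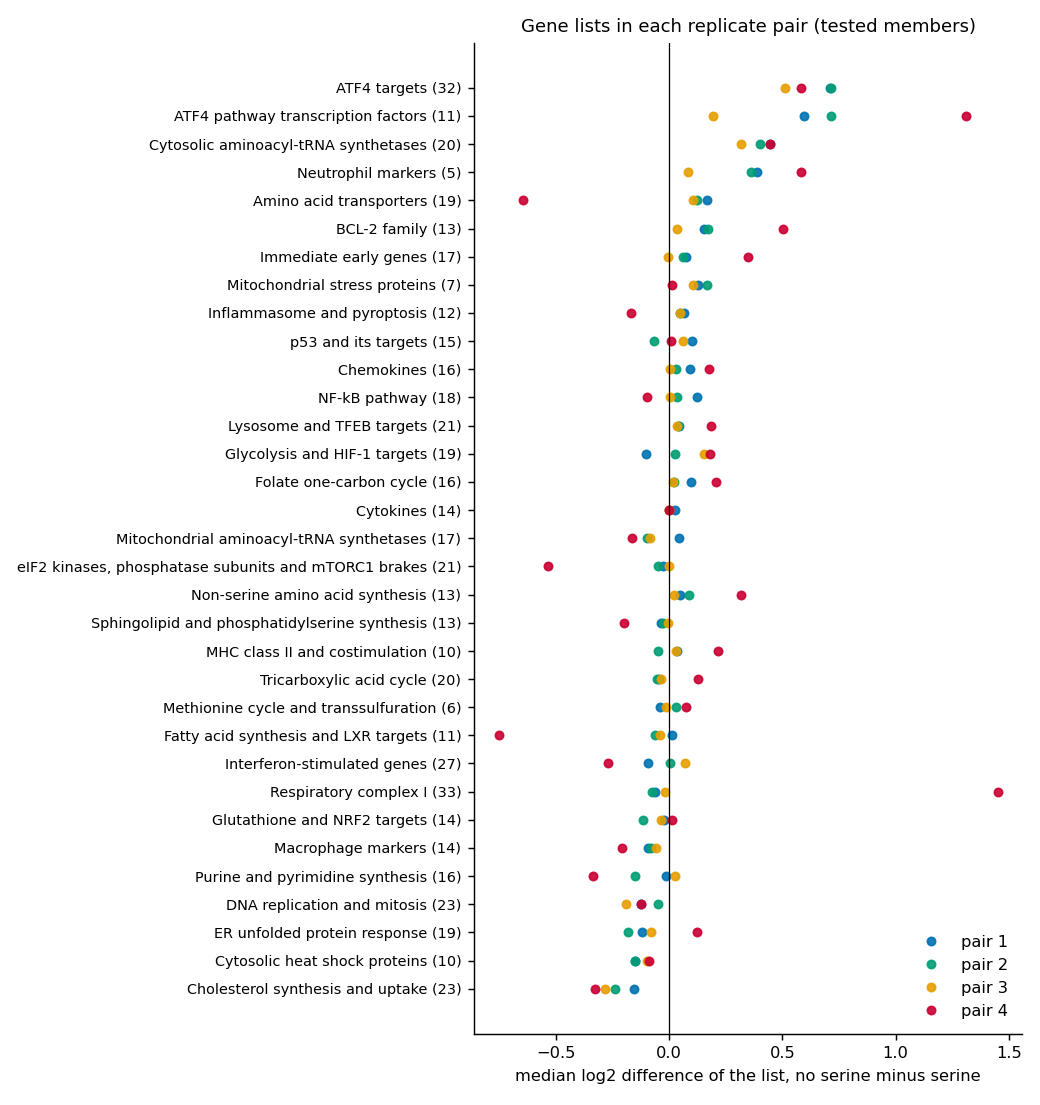
Median log2 difference of each gene list, without serine minus with serine (horizontal axis), in each of the 4 replicate pairs (points), for lists with at least 5 tested members (number in brackets), ordered by their median fold change without pair 4. ATF4 targets and cytosolic synthetases lie right of 0 in all 4 pairs, as do some other lists, among them the folate cycle and the BCL-2 family. Complex I lies near 0 in pairs 1 to 3 and at 1.45 in pair 4.

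Genes that slow protein synthesis or growth under amino acid shortage did not pass over all libraries with edgeR (2 higher and 1 lower at an unadjusted p under 0.05), and of 21 listed 0 rose and 1 fell without pair 4. Sesn2, an inhibitor of the growth kinase mTORC1 and an ATF4 target, had 39.5, 28.8, 31.3 and 30.2 CPM with serine and 60.5, 46.7, 40.3 and 22.6 CPM without. Replicate 4 went the other way, and the log2 fold change was 0.38 ± 0.18 (edgeR adjusted p = 0.662), or 0.56 ± 0.12 without pair 4 (0.0539). Its relative Sesn1, a p53 target, was the one that fell without pair 4, by 0.44 ± 0.09 on the log2 scale (0.0381), against -0.46 ± 0.13 over all libraries (0.628). Sesn1 had 97.5, 82.2, 123 and 118 CPM with serine and 63.4, 59.1, 105 and 81.6 CPM without, lower in 4 of 4 pairs although the groups overlapped. Eif4ebp1, which blocks cap-dependent translation, had a log2 fold change of 0.80 ± 0.21 (0.553), or 0.53 ± 0.17 without pair 4 (0.326). Ddit4, another brake on mTORC1, had 0.26 ± 0.40 (0.807) at 1.02 to 2.97 CPM, or 0.45 ± 0.41 without pair 4 (0.842).

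Some genes outside the ATF4 list also passed without pair 4. Of the 42 higher genes, 22 were higher in all 4 pairs and 20 were lower in pair 4. The following 4 were chosen after their values were seen. Ern1, the endoplasmic reticulum stress sensor IRE1, had 84.6, 75.7, 75.8 and 76.4 CPM with serine and 128, 117, 95.9 and 46.2 CPM without, with a log2 fold change of 0.52 ± 0.08 without pair 4 (0.0054) and 0.27 ± 0.19 with it (0.662). Crebrf, a regulator of CREB3, had 0.37 ± 0.07 without pair 4 (0.0318) and 0.08 ± 0.22 with it (0.898). Fbxo32, a ubiquitin ligase subunit, and Rragd, a GTPase that carries amino acid signals to mTORC1, were higher in 4 of 4 pairs, at 0.48 ± 0.09 (0.0264) and 0.46 ± 0.08 (0.0195) without pair 4. With pair 4 they were at 0.40 ± 0.11 (0.576) and 0.36 ± 0.11 (0.662).

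No gene fell over all libraries, and 5 fell without pair 4, each lower in 4 of 4 pairs (9.94% of tested genes were), and 2 of them with no overlap of the groups (1.32%). Cx3cr1 (chromosome 9, 119901616 to 120068283), the fractalkine receptor of monocytes and macrophages, went from 34.4, 52.5, 32.3 and 26.2 CPM to 22.5, 31.8, 21.8 and 26.0 CPM. Replicate 4 hardly differed. The log2 fold change was -0.64 ± 0.10 without pair 4 (edgeR adjusted p = 0.00576) and -0.50 ± 0.14 with it (0.628). Nanos1, an RNA-binding protein, went from 24.6, 25.2, 19.7 and 20.0 CPM to 17.6, 14.9, 14.0 and 15.2 CPM with no overlap, at -0.58 ± 0.12 (0.034) without pair 4 and -0.54 ± 0.15 (0.576) with it. Glrx, a glutaredoxin that reduces glutathione-bound proteins, was at -0.44 ± 0.09 (0.0301) and -0.34 ± 0.11 (0.662) in the same order. Sesn1, described above, was another of the 5.

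Cholesterol genes lay below 0 as a list, with a median log2 fold change of -0.21 over 23 tested members, -0.20 without pair 4, and -0.16, -0.24, -0.28 and -0.33 in pairs 1 to 4. None passed over all libraries with edgeR (8 lower and 0 higher at an unadjusted p under 0.05). In the 6 libraries of pairs 1 to 3 alone 7 fell and 0 rose (background 2.99% lower). Hsd17b7, an enzyme of the pathway, had 4.85, 6.14, 8.93 and 7.38 CPM with serine and 3.19, 3.76, 4.23 and 3.04 CPM without, with no overlap. Its log2 fold change was -0.85 ± 0.18 (edgeR adjusted p = 0.215), or -0.81 ± 0.18 without pair 4 (0.0676).

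Chaperones of the endoplasmic reticulum fold secreted proteins. The 19 genes listed here for its unfolded protein response leave out the sensor Ern1. As given above, Ern1 passed higher without pair 4 (0.52 ± 0.08, edgeR adjusted p = 0.0054) and not with it (0.662). Of the 19, 0 passed in either direction in both fits with edgeR (1 higher and 4 lower at an unadjusted p under 0.05 over all libraries). The list median was -0.03, or -0.13 without pair 4. In the 6 libraries alone, 1 rose and 10 fell (background 3.98% and 2.99%). The 1 that rose there, Herpud1, a degradation factor that is also in the ATF4 list, had a log2 fold change of 0.69 ± 0.18 over all libraries (edgeR adjusted p = 0.463) and 0.81 ± 0.20 without pair 4 (0.14). Calr, the calcium-binding chaperone calreticulin, was at 460 to 685 CPM with serine and 376 to 580 CPM without, lower in 4 of 4 pairs, at -0.27 ± 0.08 (0.662), or -0.26 ± 0.06 without pair 4 (0.0669). Hspa5, the main chaperone BiP, was at -0.21 ± 0.08 (0.662) and -0.25 ± 0.06 (0.0837).

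Among 14 genes of glutathione and the NRF2 oxidant response, Chac1 was the 1 that rose over all libraries, and Slc7a11 joined it without pair 4. Gclm, a subunit of the enzyme that limits glutathione synthesis, had 309, 322, 267 and 274 CPM with serine and 269, 226, 230 and 198 CPM without. Only replicate 1 without serine lay within the range of the controls. The log2 fold change was -0.35 ± 0.10 (edgeR adjusted p = 0.578), or -0.30 ± 0.08 without pair 4 (0.114).

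The genes of the cytokines IL-1β, IL-1α and tumour necrosis factor were low in these unstimulated cells. Il1b, which encodes IL-1β, had 17 counts over the 4 libraries with serine and 15 without, and Il1a had the same 2 totals. Their log2 fold changes were -0.17 ± 0.54 (edgeR adjusted p = 0.912) and -0.23 ± 0.36 (0.886), and -0.37 ± 0.60 (0.928) and -0.18 ± 0.38 (0.963) without pair 4, so a difference was not detectable at this depth. Tnf, tumour necrosis factor, had 17.3, 12.1, 11.8 and 11.1 CPM with serine and 22.1, 12.8, 9.36 and 19.2 CPM without, a log2 fold change of 0.23 ± 0.16 (0.668), or 0.10 ± 0.13 without pair 4 (0.907). Of 14 cytokines, 18 genes of the NF-kB pathway, 27 interferon-stimulated genes and 12 inflammasome genes, 0 passed in either direction in both fits with edgeR. The count filter for these fits also drew on the LPS-treated libraries. Only 6 of the 14 cytokines passed it in the 6 untreated libraries of pairs 1 to 3, so for the rest a change could hardly have been called. At an unadjusted p under 0.05 over all libraries, 1, 1, 0 and 1 were higher and 0 lower. In the 6 libraries alone 1 of the 6 cytokines that passed the count filter there, 3 of 18 NF-kB genes, 0 of 27 interferon-stimulated genes and 2 of 12 inflammasome genes passed, all higher (background 3.98%).

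Of the 14 macrophage markers, 0 passed over all libraries with edgeR (2 lower at an unadjusted p under 0.05), and Cx3cr1 alone fell without pair 4. In the 6 libraries alone 6 fell and 0 rose (background 2.99% lower), and 7 of the 14 were lower in 4 of 4 pairs, where 9.94% of all tested genes were. The monocyte chemokine receptor Ccr2 had 32.8, 19.5, 20.5 and 16.3 CPM with serine and 19.3, 15.4, 19.9 and 13.8 CPM without, lower in 4 of 4 pairs, at -0.36 ± 0.16 (edgeR adjusted p = 0.662), or -0.41 ± 0.15 without pair 4 (0.353).

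Subunits of respiratory complex I, the first enzyme of the mitochondrial electron transport chain, had another list median with pair 4 than without it. Over 33 tested subunits the median log2 fold change was 0.43 with all libraries and -0.06 without pair 4, and 0 passed with edgeR in either fit or in the 6 libraries alone (0 at an unadjusted p under 0.05 over all libraries). The median was between -0.08 and -0.02 in pairs 1 to 3 and 1.45 in pair 4. Ndufa2 had 34.0, 37.6, 35.1 and 33.0 CPM with serine and 34.7, 33.5, 34.6 and 376 CPM without.

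Serine withdrawal from LPS-treated cells, measured in the other 8 libraries, called 73 genes higher (0.663%) and 25 lower (0.227%). The 2 comparisons share no library, though they share the replicate numbers and the estimate of spread. Of the 42 genes higher in untreated cells without pair 4, 20 were also higher there, 47.6% of the 42 and 27.4% of the 73. With all libraries it was 8 of the 9, all but Jdp2. Of the 5 lower genes, 1 was also lower. The fold change with LPS had the same sign in 40 of the 42 and 5 of the 5, as it had in 62.5% of the 10999 genes in both fits. The exceptions in sign were Slc7a11, at -0.12 ± 0.10 with LPS (0.881), and Tnfaip2, a gene induced by tumour necrosis factor, at -0.16 ± 0.11 (0.79). Slc7a11 had a mean of 21.6 CPM in untreated and 664 CPM in LPS-treated cells in complete medium.

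**Figure D5:**
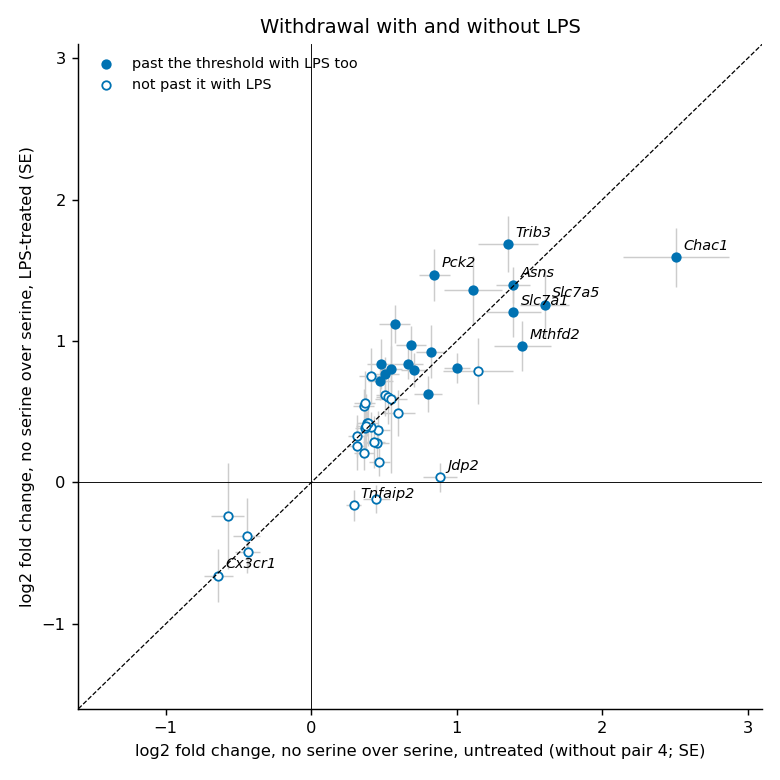
Log2 fold change with serine withdrawal in untreated cells without pair 4 (horizontal axis) and in LPS-treated cells (vertical axis) for genes called in untreated cells (1 of the 47 is not shown), with SE as error bars. Filled points also passed with LPS, and the dashed line marks equal change. Jdp2 lies at 0.89 and 0.04, Chac1 at 2.51 and 1.59.

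The difference between the withdrawals was tested directly. Over all libraries 0 genes passed with edgeR (465 at an unadjusted p under 0.05), where DESeq2 and limma voom each called 13. Without pair 4, 7 passed, of which 3 had the higher effect with LPS (0.027%) and 4 the lower (0.0359%). Of these 7, 2 were among the 47 called genes. Jdp2 rose in untreated cells and was at 0.04 ± 0.10 with LPS, a difference of -0.84 ± 0.14 (edgeR adjusted p = 0.0256). Tnfaip2 was at 0.29 ± 0.05 in untreated cells without pair 4 (0.0189), but 0.18 ± 0.11 with it (0.662), and differed from LPS-treated cells by -0.45 ± 0.07 (0.0209). Both genes had other levels with LPS. In complete medium, Jdp2 had a mean of 8.71 CPM in untreated and 141 CPM in LPS-treated cells. Tnfaip2 had 310 and 4993 CPM. The part of these levels in the differences was not tested. The other 5 did not pass in untreated cells without pair 4, and the chemokine receptor Cxcr4 had the largest difference of the 7, 1.02 ± 0.11 (0.000556), from 0.07 ± 0.08 in untreated cells and 1.09 ± 0.11 with LPS. Asns differed by 0.01 ± 0.16 and Atf4 by -0.18 ± 0.12, with adjusted p of 0.998 and 0.84. Il1b was at -1.08 ± 0.18 in the withdrawal with LPS (edgeR adjusted p = 0.0137).

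The authors' deposited table of the same comparison marked 6 genes as higher and 0 as lower among 11534. An adjusted p under 0.05 was held by 7 genes of the authors' deposited table, so the marks are stricter than the threshold used for the 9. The marked genes were Asns, Chac1, Mthfd2, Trib3, Cars and Pck2, all among the 9 above. In the authors' deposited table their log2 fold changes were 1.50, 2.52, 1.54, 1.55, 1.08 and 1.07, with adjusted p of 0.00706 or less.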

How the data were processed

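The authors deposited unnormalized read counts for each Ensembl gene. The submitters' processing notes name the mm10 build and HTSeq, STAR, SAMtools, edgeR and Trimmomatic 0.33, without saying what each did. The deposited table of the authors' own comparison gives log2 fold changes, whose scaling is not stated, p-values and marks for genes called higher or lower. The other files and 24 per-sample columns of no listed sample were not used. Of 43430 identifiers, 42462 matched a symbol, and gene positions span each gene's annotation (GRCm38, the mm10 build).

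The fit used edgeR 4.0.16 under R 4.3.3: default filter on low counts, TMM scaling, a robust quasi-likelihood fit to all 16 libraries with a mean per group and the replicate number as a block (9 residual degrees of freedom). Tests are two-sided, with Benjamini-Hochberg adjustment over all genes tested. SE is the absolute log2 fold change over the square root of F, and CPM are TMM-adjusted. Per-pair log2 CPM use a prior count of 2. The scripts were tested on simulated counts drawn with the same model of spread for every library, and so without the wide spread seen in pair 4. DESeq2 1.42.0, limma 3.58.1 (voom), scalings, filters and left-out libraries were alternatives. The replicate numbers come from the titles. Deviations from group means correlated at 0.185 to 0.609 between same-numbered libraries and at -0.317 to 0.079 between others, so the numbers pair the samples. No 2 libraries were copies (lowest chi-square per degree of freedom 2.04). The comparison, its pairing, the doubt about pair 4 and the 41 gene lists were chosen with earlier results of these data known.

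Genes were named if they passed over all libraries, or if they passed without pair 4 with a mean of at least 5 CPM and 1 sign in all 4 pairs (the 12 highest and 12 lowest), or if they belonged to a fixed set of genes of serine metabolism, amino acid stress and cytokines, or by their rank in a list. Some genes that these rules name are not reported here.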

Additional observations from a re-analysis of the deposited data

Results flagged for a closer look

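Of 96 groups of 4 libraries checked for a sample far from the rest, 3 had one by Dixon's criterion, where chance gives about 1 in 20, and none was replicate 4 without serine. Sars stood at 130 CPM in replicate 2 with serine, above the other 3 at 107 to 109 CPM. Glrx stood at 84.3 CPM in replicate 1 with serine, where the other 3 lay between 55.0 and 58.2 CPM. Tnf stood at 17.3 CPM in replicate 1 with serine, against 11.1 to 12.1 CPM.

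The effect of withdrawal on Jdp2 differed between LPS-treated and untreated cells by -0.842 on the log2 scale in the test without untreated pair 4. Over all libraries the difference did not pass.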

How the results depend on the processing

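Without the replicate block, 0 genes were higher, against 9 with it, and 0 without block and pair 4, with 0 ATF4 targets and 0 cytosolic synthetases called in both. The 8 untreated libraries alone gave 0 higher genes and 0 members of either list. DESeq2 called 68 higher, 12 lower and 13 in the difference between withdrawals, with 13 ATF4 targets and 8 synthetases, and limma voom 83, 14 and 13, with 16 and 9. No filter on low counts gave 1 lower gene and 2 synthetases. Total-count scaling gave 2 synthetases and a synthetase median of 0.32 (0.38 with TMM), and put the median of all genes at -0.06. Leaving out each untreated pair gave 3 to 42 higher genes, 0 to 5 lower and 0 to 7 in the difference, 2 to 11 ATF4 targets, and 1 to 6 synthetases with a median of 0.31 to 0.40. Leaving out each untreated library gave 4 to 70 higher, 0 to 9 lower and 0 to 8 in the difference, 3 to 15 ATF4 targets with a median of 0.63 to 0.78, and 1 to 7 synthetases with a median of 0.28 to 0.43. The untreated libraries alone without each pair, an alternative chosen after seeing the data, gave 0 to 430 higher, 0 to 323 lower, 0 to 25 ATF4 targets, and 0 to 12 synthetases with a median of 0.32 to 0.40, the highest counts without pair 4 and 0 without any other pair. The cause was not tested. Of the values of single genes under other settings, 968 kept direction and side of the threshold, 95 lost a call, 92 gained one and 23 changed sign, in 5 genes not called over all libraries. Mthfd1l was at 0.0013 without the block, 0.19 without block and pair 4, 0.12 with voom, and -0.20 to 0.18 without each pair, -0.20 to 0.12 without each library and -0.22 to 0.18 in the untreated libraries alone. Shmt1 was at -0.22 without block and pair 4, -0.19 with voom, and -0.23 to 0.21, -0.22 to 0.23 and -0.24 to 0.24 in the same order. Ddit4 was at -0.27 to 0.45, -0.13 to 0.63 and -0.18 to 0.46. Without each pair and each library, Il1b was at -0.47 to 0.12 and -1.03 to 0.40, and Atf3 at 0.10 to 0.24 and -0.00012 to 0.27. Depth limits Il1b and Il1a, with 15 to 17 counts a group.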
